A study of Homo sapiens with 9 samples.

Results

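Open chromatin was mapped with ATAC-seq, which reads the DNA that the Tn5 transposase can reach, in HEK293T, an established human embryonic kidney line. Cells with a knockout (KO) of the gene for 1 of the oncofetal RNA-binding proteins IGF2BP1, IGF2BP2 or IGF2BP3 were set against a CRISPR control made with a guide that targets no mammalian gene. The described set is 8 genes whose transcripts are known to be bound or shielded by these proteins: LIN28A, LIN28B, HMGA1, HMGA2, MYC, MYCN, CD44 and ACTB. Every peak in the body of 1 of these genes or within 50 kb of it was taken, which gave 113 of the 194414 peaks in the 4 deposited lists. The labels give no treatment besides the editing. The labels give 2 libraries for the control, 3 for IGF2BP1-KO and 2 for each other knockout, 9 in all, and each group has 1 list. Each knockout is 1 clone grown from a single cell transfected with a plasmid that carries 3 guides, so the effects of clone and of genotype cannot be told apart. Batch 1 holds an IGF2BP1-KO library alone, and batches 2 and 3 hold a library of every group. The lists give the position of each peak with no height, so the spread between libraries is unknown, no test between groups was made, and depth is unknown.

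IGF2BP proteins bind messenger RNA and are known for keeping target transcripts from decay, some of them by shielding sites of the let-7 microRNAs. LIN28A and LIN28B are RNA-binding proteins that block the maturation of let-7, HMGA1 and HMGA2 are architectural proteins that bind AT-rich DNA, and HMGA2 is a let-7 target. MYC and MYCN are transcription factors that pair with MAX on E-box sequences, CD44 is a cell surface receptor for hyaluronan, and ACTB encodes beta-actin, whose messenger carries the zipcode element bound by IGF2BP1. ATAC-seq sees none of these RNA contacts, only the chromatin at the genes.

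A promoter that all lists covered (HMGA1) and 3 that some lists covered in part or not at all (LIN28B, MYCN and CD44) are shown first. RefSeq's promoter table (GRCh38.p14) held 6 entries for 4 of the 8 genes. LIN28B, HMGA1, MYCN and CD44 were matched, and LIN28A, HMGA2, MYC and ACTB were not. The 250 bases before 4 of these starts are given 5′ to 3′ on the plus strand, with capitals marking every match, on either strand, to an E-box (CACGTG), a GC box (GGGCGG), the CCAAT box (spelled as named), the TATA box (TATAAA) or the CArG box bound by SRF. The second start of LIN28B follows chr6:104956857-104957106, the first start of HMGA1 follows chr6:34236623-34236872, that of MYCN follows chr2:15940300-15940549 and that of CD44 follows chr11:35138921-35139170.
LIN28B: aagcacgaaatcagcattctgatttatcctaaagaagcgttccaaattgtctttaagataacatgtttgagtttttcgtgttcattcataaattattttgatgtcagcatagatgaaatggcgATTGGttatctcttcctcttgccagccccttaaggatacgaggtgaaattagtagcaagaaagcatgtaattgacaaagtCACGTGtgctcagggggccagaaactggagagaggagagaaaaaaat
HMGA1: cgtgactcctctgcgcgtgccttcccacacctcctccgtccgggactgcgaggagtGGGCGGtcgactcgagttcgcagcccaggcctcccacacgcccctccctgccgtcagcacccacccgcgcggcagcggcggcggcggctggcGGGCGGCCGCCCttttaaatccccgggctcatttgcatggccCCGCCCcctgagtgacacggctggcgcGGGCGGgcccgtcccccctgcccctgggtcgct
MYCN: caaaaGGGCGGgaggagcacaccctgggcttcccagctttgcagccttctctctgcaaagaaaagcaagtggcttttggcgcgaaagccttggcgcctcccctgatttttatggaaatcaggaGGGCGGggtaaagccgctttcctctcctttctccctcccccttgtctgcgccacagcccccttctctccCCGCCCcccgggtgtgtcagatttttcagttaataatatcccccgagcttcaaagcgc
CD44: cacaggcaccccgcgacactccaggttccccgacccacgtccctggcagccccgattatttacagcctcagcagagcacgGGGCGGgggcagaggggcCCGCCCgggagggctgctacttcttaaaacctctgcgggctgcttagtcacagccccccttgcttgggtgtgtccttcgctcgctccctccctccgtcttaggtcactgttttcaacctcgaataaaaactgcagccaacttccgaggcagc

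The 250 bases before the second start of HMGA1, not printed here, had 84 bases in a peak of the IGF2BP3-KO list and 0 in the other 3. The 4 printed stretches differed in how far the peaks reached over them. All 250 bases of the HMGA1 stretch lay in a peak of every list. The LIN28B stretch lay whole in peaks of the control, IGF2BP1-KO and IGF2BP2-KO lists, with 0 bases in the IGF2BP3-KO list. The MYCN stretch lay whole in peaks of the control, IGF2BP2-KO and IGF2BP3-KO lists, and 69 of its bases did in the IGF2BP1-KO list. The CD44 stretch lay whole in a peak of the IGF2BP3-KO list, with 0 bases in the other 3. The LIN28B stretch was the poorest of the 4 in G and C, at 38.4%, against 57.2% at MYCN, 62.4% at CD44 and 74.8% at HMGA1. The median over 35116 promoter entries was 58.0%. The LIN28B stretch held 1 E-box, whose first base lies 47 bases before the start, and 6.34% of all entries hold one in the same length. GC boxes numbered 5 at HMGA1, 3 at MYCN and 2 at CD44, and 42.6% of all entries hold at least 1. The LIN28B stretch also held 1 CCAAT box, as 32.0% of entries do. The TATA box and the CArG box, which 10.7% and 1.16% of entries hold, had 0 matches in the 4 stretches.

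**Figure D1:**
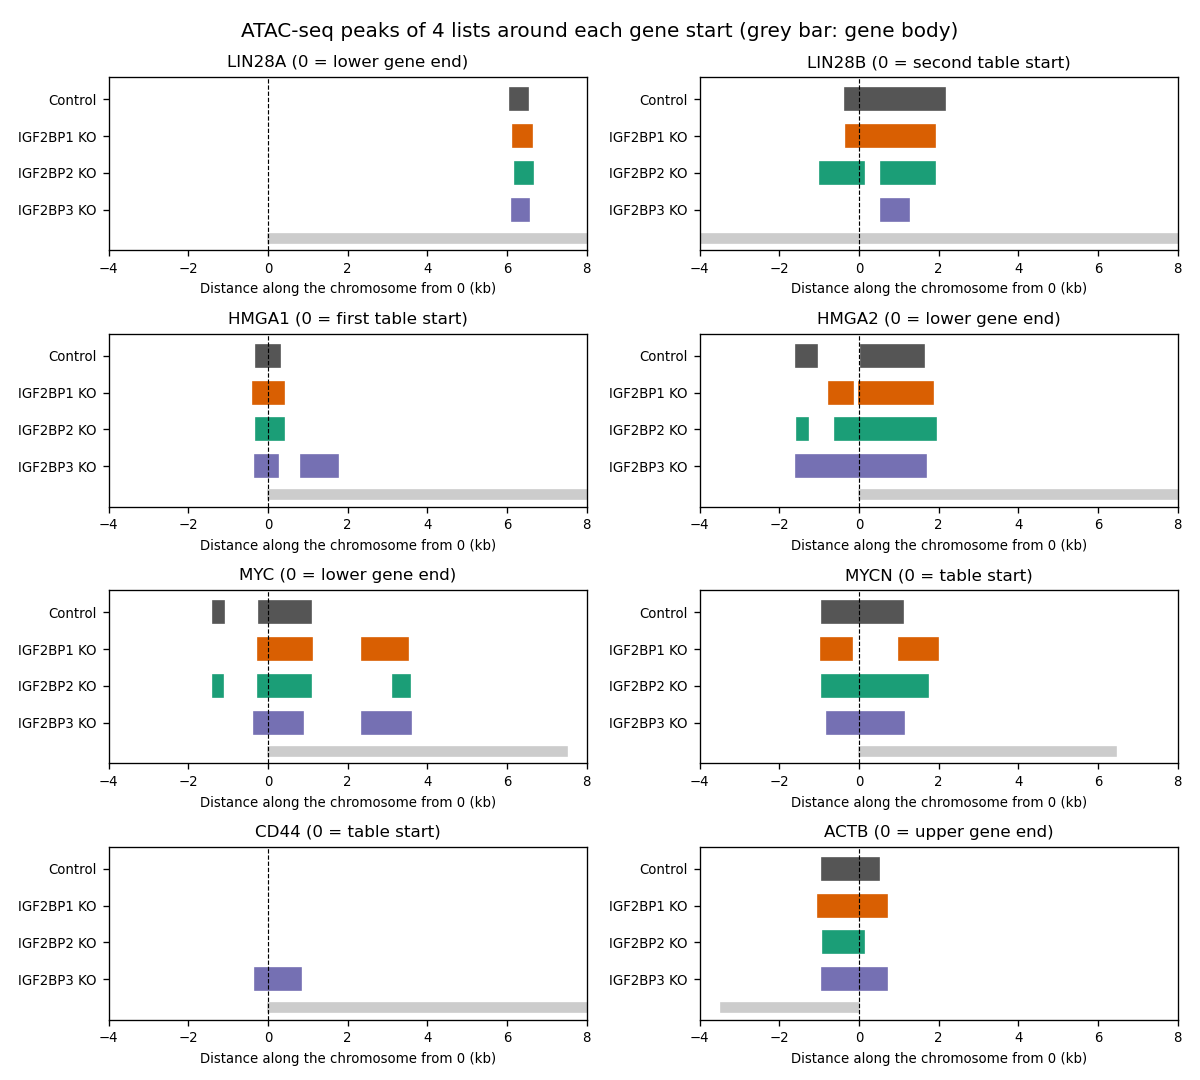
Peaks of the 4 lists (coloured bars, 1 row per list) from 4 kb below to 8 kb above a start of each gene, with distance along the chromosome in kb on the horizontal axis and the gene body as a grey bar. In place of a start, the lower gene end is used for LIN28A, HMGA2 and MYC and the upper gene end for ACTB. HMGA1, HMGA2, MYC, MYCN and ACTB have a peak near 0 in every list, CD44 in the IGF2BP3-KO list alone, and LIN28A in no list.

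A peak within 1 kb of a gene start was counted as a promoter peak. For genes without a promoter entry both gene ends were used, so a peak at a 3′ end counts too. By this measure 6 of the 8 genes had a promoter peak in the control list, 6 in the IGF2BP1-KO list, 6 in the IGF2BP2-KO list and 7 in the IGF2BP3-KO list. Over all 20037 protein-coding genes the shares were 66.6%, 68.7%, 68.2% and 67.5% in the same order. LIN28B, HMGA1, HMGA2, MYC, MYCN and ACTB had one in every list, LIN28A had none in any list, as had 29.0% of protein-coding genes (a window of 2.5 kb takes in the site at its neighbour DHDDS), and CD44 had one in the IGF2BP3-KO list alone, as had 0.584%. Of the 2 genes without a control promoter peak, 0, 0 and 1 gained one in the IGF2BP1-KO, IGF2BP2-KO and IGF2BP3-KO lists, where 8.25%, 8.70% and 6.74% of all such genes did. None of the 6 genes with a control promoter peak lacked one in a knockout list, a loss seen at 1.03%, 1.97% and 2.08% of all genes with a control promoter peak.

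The 8 neighbourhoods together span 1.227 Mb and held 25 peaks in the control list, 29 in the IGF2BP1-KO list, 34 in the IGF2BP2-KO list and 25 in the IGF2BP3-KO list. These are 1.16, 1.36 and 1.0 times the control number, below the ratios of the whole lists, 1.299, 1.538 and 1.124. The neighbourhood ratios rest on 25 control peaks and are given without an interval. Whether they differ from those of the whole lists was not tested. When each list was cut to its 39194 widest peaks, the length of the shortest, the neighbourhood ratios of IGF2BP1-KO and IGF2BP2-KO went to 0.88 and 0.92. That of IGF2BP3-KO was 1.0. The cut lists are of equal length, so their ratio over all peaks is 1 by construction. The median width percentiles of these peaks were 56.75, 64.3, 54.62 and 68.47 in the control, IGF2BP1-KO, IGF2BP2-KO and IGF2BP3-KO lists, where the percentile is the percentage of peaks of the same list that are narrower. Over all peaks the median widths were 771, 834, 651 and 713 bp in the same order, so widths in bp differ between the lists in general. ACTB had the densest neighbourhood, with 6 to 8 peaks per list covering 6.423 to 8.832% of it. CD44 had the emptiest, with 0 peaks in the control and IGF2BP2-KO lists, 1 in the IGF2BP1-KO list and 2 in the IGF2BP3-KO list.

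**Figure D2:**
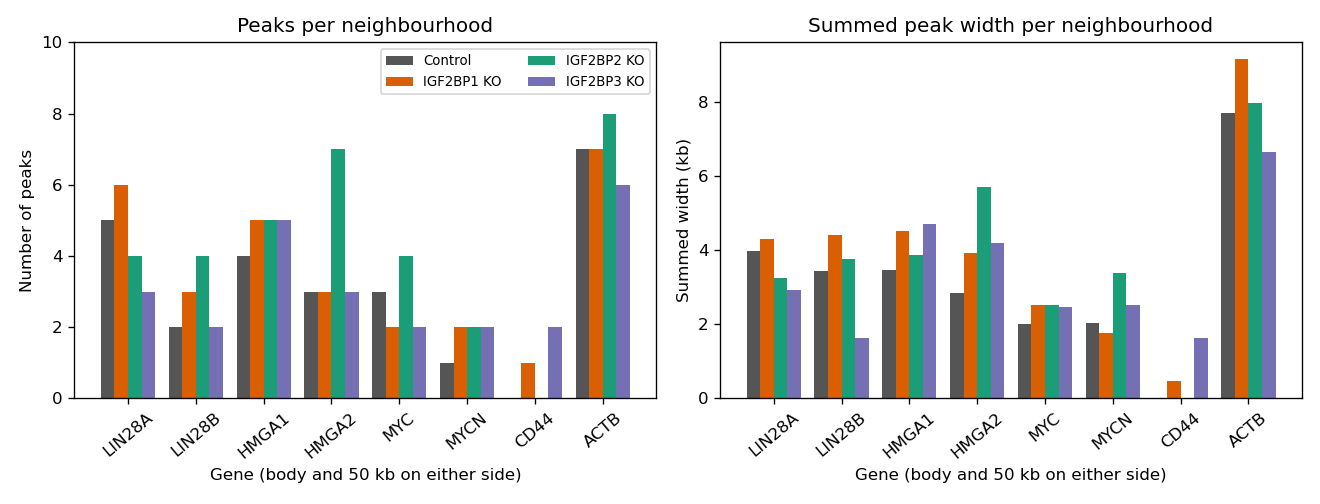
Number of peaks (left) and their summed width in kb (right) in the body of each gene and 50 kb on either side, with 1 bar per list. HMGA2 has 7 peaks in the IGF2BP2-KO list against 3 in each other list, and CD44 has no bar in the control and IGF2BP2-KO lists.

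Peaks of different lists with at least 1 bp in common were treated as shared. In the neighbourhoods, 6 of 29 IGF2BP1-KO peaks (20.7%, Wilson 95% interval 9.8 to 38.4) had no control counterpart, against 31.2% in the whole list. The number was 9 of 34 in IGF2BP2-KO (26.5%, 14.6 to 43.1), against 40.2%, and 6 of 25 in IGF2BP3-KO (24.0%, 11.5 to 43.4), against 27.2%. In the opposite direction, 3 of 25 control peaks (12%, 4.2 to 30.0) had no counterpart in IGF2BP1-KO, against 10.1% of the whole control list. In IGF2BP2-KO it was 1 of 25 (4.0%, 0.7 to 19.5), against 8.80%, and in IGF2BP3-KO 5 of 25 (20.0%, 8.9 to 39.1), against 18.5%. The share in the whole list lay inside each of the 6 intervals, which cover counting error over peaks only. With lists cut to their 39194 widest peaks, the share without a control counterpart was 9.09% in IGF2BP1-KO and 13% in IGF2BP2-KO, and the share of control peaks without a counterpart was 24% in each of these. The IGF2BP3-KO shares were 24% and 20% under that setting. Shares over the whole lists were not recomputed for it, so whether the neighbourhoods then differ from all peaks is not known. With neighbourhoods of 20 kb, 0% and 6.67% of control peaks had no counterpart in IGF2BP2-KO and IGF2BP3-KO.

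Merging overlapping peaks gave 38 regions, of which 19 (50%, 34.8 to 65.2) were in all 4 lists, against 41.5% of all 71597 regions. The IGF2BP2-KO list alone held 5 regions, where 15.2% of all regions fall. Its 5 were 3 in the body of HMGA2, 1 in that of LIN28B and 1 in FBXL18 beside ACTB. The IGF2BP1-KO list alone held 2 (6.03% of all regions) and the IGF2BP3-KO list alone 2 (4.90%). All 3 knockouts without the control shared 1 region, in MYC, a class that takes 6.88% of all regions. The control list alone held 0 of the 38, and 1.98% of all regions. Inside gene bodies or promoter windows, 9 of 17 regions were in all 4 lists, and 10 of the 21 others were.

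**Figure D3:**
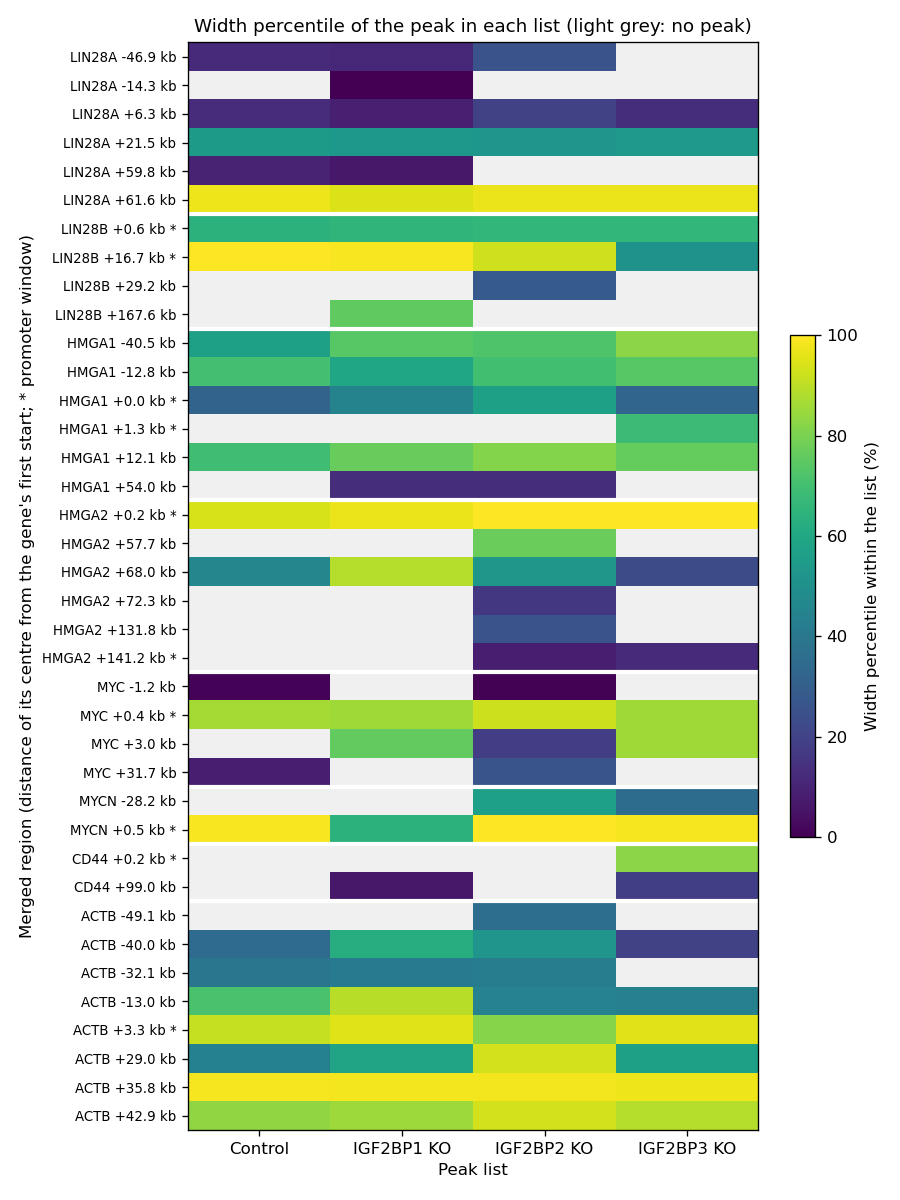
The 38 merged regions (rows, with * for those in a promoter window) in the 4 lists (columns). Colour gives the width percentile of the widest peak, and light grey marks a list with none. Rows are ordered by gene and labelled by the distance of their centre in kb from the gene's lowest start. For LIN28A, HMGA2, MYC and ACTB the distance is from the lower gene end, which for ACTB is not the end with its wide peak. Of the rows with a list missing, those with a wide peak include CD44 at +0.2 kb and HMGA1 at +1.3 kb in IGF2BP3-KO and MYC at +3.0 kb.

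LIN28A (gene 79727, chr1:26410817-26429728) had 1 small site in its body, in every list, and none at its ends. The site lay 6.35 kb above the lower gene end and measured 463 bp in the control, 489 bp in IGF2BP1-KO, 450 bp in IGF2BP2-KO and 420 bp in IGF2BP3-KO. These widths were at percentiles 12.72, 8.72, 19.34 and 12.92, so the site was narrow in all 4 lists. The next site, chr1:26431921-26432784, overlaps the lower end of the neighbouring gene DHDDS and was 671 to 864 bp wide. The widest, 1630 to 1811 bp, lay at HMGN2, which encodes a nucleosome-binding protein. The 3 sites not in every list had no peak in IGF2BP3-KO. They were a site of 458 to 510 bp in ZNF683, one of 429 and 464 bp in DHDDS that IGF2BP2-KO lacked as well, and a peak of 273 bp in the IGF2BP1-KO list alone, 14151 bp from LIN28A and at width percentile 0.05. Regions in the same lists as these sites made up 5.15%, 1.26% and 6.03% of all merged regions, in that order.

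LIN28B (gene 389421, chr6:104937026-105083332) had peaks within 1 kb of both starts of the promoter table, and the lists parted at the second. The peak after the first start measured 926, 1000, 799 and 893 bp in the control, IGF2BP1-KO, IGF2BP2-KO and IGF2BP3-KO lists, at width percentiles from 64.13 to 66.32. At the second start, the control peak spanned chr6:104956768-104959265 (2498 bp, percentile 99.81) and the IGF2BP1-KO peak 2251 bp (percentile 99.2). IGF2BP2-KO had 2 peaks there, of 1110 and 1354 bp with a gap of 426 bp between them. IGF2BP3-KO had 1 peak of 724 bp (percentile 51.22), chr6:104957649-104958372, which left the start base and the E-box stretch printed above uncovered. Of 13082 start bases of protein-coding genes in a control peak, 3.32% were in no IGF2BP3-KO peak, 3.48% in no IGF2BP2-KO peak and 1.26% in no IGF2BP1-KO peak. The members in the table had 3 start bases in control peaks, of which 1 was lost in IGF2BP3-KO (LIN28B), 0 in IGF2BP2-KO and 1 in IGF2BP1-KO (MYCN).

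Summed over both windows, LIN28B promoter width was 3424 bp in the control, 3251 bp in IGF2BP1-KO, 3263 bp in IGF2BP2-KO and 1617 bp in IGF2BP3-KO. The last is 0.472 times the control, -1.08 on the log2 scale, and 0.788% of genes had a lower value in that list. Past a 1.5-fold difference, 1 of the 6 members with a promoter peak in both lists was narrower in IGF2BP3-KO (LIN28B), 0 in IGF2BP2-KO and 1 in IGF2BP1-KO (MYCN). Over all genes these shares were 3.83%, 4.16% and 0.901%. Elsewhere at the gene, IGF2BP2-KO alone had a peak of 502 bp, and IGF2BP1-KO alone had one of 1144 bp (percentile 75.54) at chr6:105108018-105109161. The latter lies in POPDC1, which encodes a membrane protein of muscle, and not in LIN28B.

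HMGA1 (gene 3159, chr6:34236873-34246231) had a peak on its first start in every list and a second one in IGF2BP3-KO alone. The first measured 617 bp in the control, 783 bp in IGF2BP1-KO, 706 bp in IGF2BP2-KO and 568 bp in IGF2BP3-KO. It was of moderate width in each list, at percentiles from 31.89 to 57.02, and also overlaps the coding gene LOC124901225. The second peak, chr6:34237703-34238624, was 922 bp wide (percentile 68.47), was separated from the first by 581 bp and ended short of the gene's second start at position 34238791. With it, promoter width in IGF2BP3-KO was 1490 bp, 2.41 times the control (1.27 on the log2 scale), a value exceeded by 0.199% of genes. In the other knockouts the ratio was 1.27 and 1.14. The neighbouring sites centred at -40.49, -12.78 and, at SMIM29, 12.12 kb from the first start were in all 4 lists at widths from 841 to 1165 bp. A narrow site in NUDT3 was in the IGF2BP1-KO and IGF2BP2-KO lists, at 525 and 399 bp.

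HMGA2 (gene 8091, chr12:65824460-65966291) had more sequence in peaks at its lower end in each knockout list than in the control. The control had a peak of 518 bp ending at 65823403, a gap of 1111 bp, and a peak of 1573 bp (percentile 94.1) starting 55 bp above the gene end. In IGF2BP1-KO, peaks of 602 and 1869 bp were 138 bp apart, and the former, chr12:65823719-65824320, lay inside the gap of the control list, so that the lower control peak had no counterpart in this list. In IGF2BP2-KO, a peak of 270 bp was followed after 690 bp by one of 2531 bp (percentile 99.91). In IGF2BP3-KO, 1 peak of 3276 bp, chr12:65822876-65826151, ran across the whole stretch (percentile 99.99). Each knockout list thus had a peak in the gap of the control list, which the map of peaks around each gene start shows. The pseudogene RPSAP52 also overlaps this stretch.

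Counted by the promoter rule, HMGA2 width was 1573 bp in the control, 2471 bp in IGF2BP1-KO, 2886 bp in IGF2BP2-KO and 3690 bp in IGF2BP3-KO. The ratios to control were 1.57, 1.83 and 2.35 (0.65, 0.88 and 1.23 on the log2 scale). HMGA2 was the only member wider by 1.5-fold or more in IGF2BP1-KO and IGF2BP2-KO, and 1 of 2, with HMGA1, in IGF2BP3-KO. Wider promoters past 1.5-fold made up 6.36%, 2.58% and 2.57% of all genes. The counts for IGF2BP2-KO and IGF2BP3-KO include peaks of 355 and 414 bp at the upper gene end, and with the lower end alone the log2 values were 0.65, 0.69 and 1.06. With a window of 2.5 kb, chosen after seeing the data, which takes in the lower control peak, the log2 values were 0.24, 0.59 and 0.82, and that of IGF2BP1-KO was short of 1.5-fold. All peaks of the stretch at the lower end, without the upper end, covered 2091 bp for the control, and the knockouts reached 2471 bp (IGF2BP1-KO), 2801 bp (IGF2BP2-KO) and 3276 bp (IGF2BP3-KO). By this sum only IGF2BP3-KO passed 1.5-fold, with ratios of 1.18, 1.34 and 1.57.

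**Figure D4:**
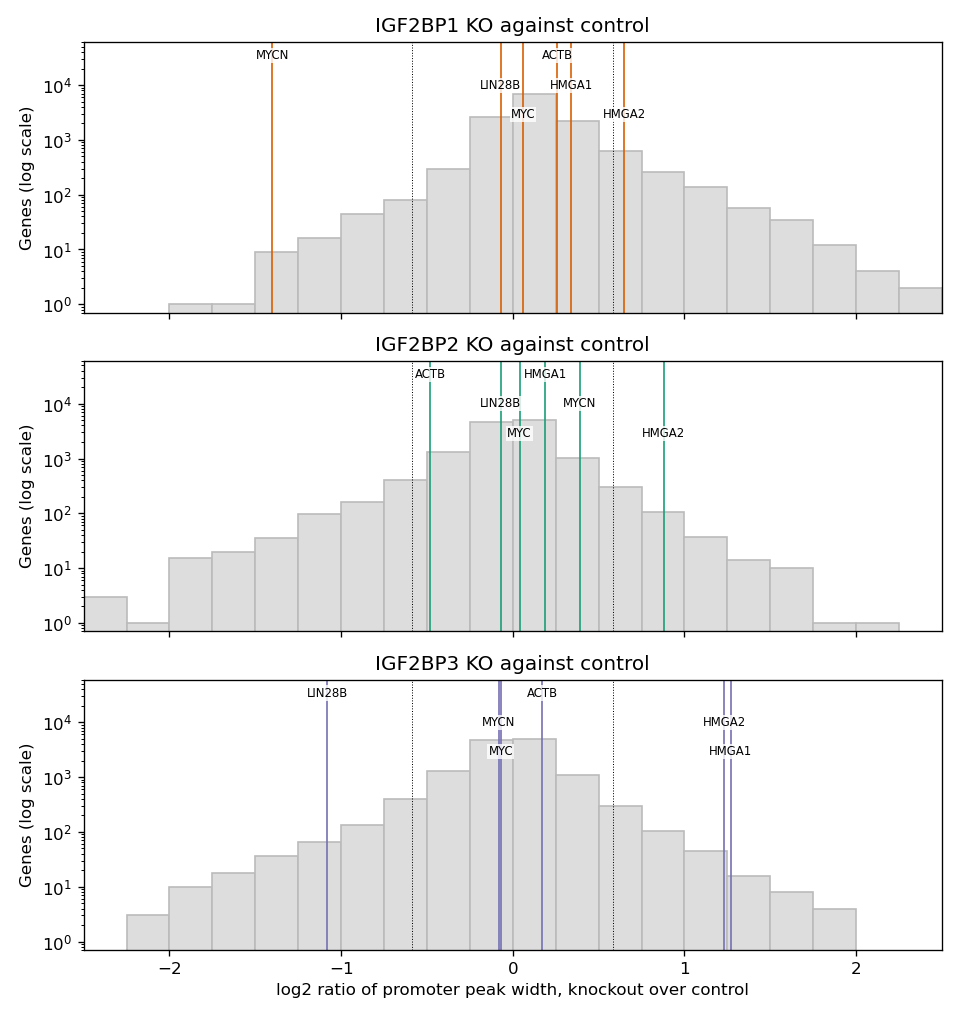
Log2 ratio of promoter peak width, knockout over control, for all genes with a promoter peak in both lists (grey bars, number of genes on a log scale) and for the 6 members that have one (coloured lines), with dotted lines at 1.5-fold. HMGA2 lies above 1.5-fold in each panel, MYCN lies at -1.40 in IGF2BP1-KO and LIN28B at -1.08 in IGF2BP3-KO. These values are for the 1 kb window. With a window of 2.5 kb, HMGA2 (0.24) and MYCN (-0.21) were within 1.5-fold in IGF2BP1-KO.

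The body of HMGA2 held more sites in the IGF2BP2-KO list than in the others. A site 68.0 kb above the lower end was in all lists, with 737 bp in the control, 1442 bp in IGF2BP1-KO, 672 bp in IGF2BP2-KO and 504 bp in IGF2BP3-KO, and was widest in IGF2BP1-KO. IGF2BP2-KO alone had a peak of 953 bp (chr12:65881652-65882604, percentile 77.29), which also overlaps the antisense gene HMGA2-AS1. It alone also had narrow peaks of 425 bp (percentile 16.14) and 489 bp (percentile 25.63). In all, 6 peaks of this list overlapped the gene, against 2 each in the control and IGF2BP1-KO lists and 3 in the IGF2BP3-KO list. The 6 include the peak of 355 bp at the upper end (percentile 8.24). The whole IGF2BP2-KO list was 1.538 times as long as the control list, and 15.2% of all merged regions were in it alone.

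MYC (gene 4609, chr8:127735434-127742951) had nearly the same promoter peak in all lists and an internal peak in the knockouts alone. The promoter peak measured 1297 bp in the control, 1355 bp in IGF2BP1-KO, 1331 bp in IGF2BP2-KO and 1232 bp in IGF2BP3-KO, log2 ratios of 0.06, 0.04 and -0.07. The internal site, chr8:127737784-127739025, is centred 2.97 kb above the lower gene end. Its peak was 1154 bp wide in IGF2BP1-KO (percentile 76.13), 441 bp in IGF2BP2-KO (percentile 18.1) and 1236 bp in IGF2BP3-KO (percentile 85.82), and the control had none. With a window of 2.5 kb, which takes in this site, the log2 width ratios were 0.66 in IGF2BP1-KO and 0.64 in IGF2BP3-KO, past 1.5-fold. In the lists cut to 39194 peaks, the narrowest peaks kept were 612 bp in IGF2BP1-KO and 401 bp in IGF2BP3-KO. The internal peaks of these 2 lists were thus bound to stay. That of IGF2BP2-KO, under the 541 bp then needed in its list, did not. The control and IGF2BP2-KO shared 2 narrow sites that the others lacked, of 288 and 253 bp below the gene beside CASC11 and of 406 and 492 bp above it, 23894 bp from the gene. These were the only 2 of the 38 merged regions in just these lists, where 1.61% of all regions fall.

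MYCN (gene 4613, chr2:15940550-15947004) lay under 1 of the widest peaks of each list except the IGF2BP1-KO list. The peak over its start was 2036 bp wide in the control (percentile 98.83), 2669 bp in IGF2BP2-KO (99.95) and 1927 bp in IGF2BP3-KO (98.47). IGF2BP1-KO had 2 peaks instead, of 769 bp (percentile 43.14) below the start and 986 bp (percentile 64.3) inside the gene, with a gap of 1187 bp that contains the start base. Of the 25 control peaks in the neighbourhoods, 1 was overlapped by 2 peaks of IGF2BP1-KO (MYCN), 1 by 2 of IGF2BP2-KO (LIN28B) and 0 by 2 of IGF2BP3-KO. Over the whole control list this was so for 0.171%, 1.03% and 0.651% of peaks. The promoter width of MYCN was 0.378 times the control in IGF2BP1-KO (-1.40 on the log2 scale), and 0.0151% of genes had a lower value. With a window of 2.5 kb, which takes in the second peak, the value was -0.21. The transcript MYCNOS overlaps the same stretch. A second site, centred at -28.2 kb from the start, was in the IGF2BP2-KO and IGF2BP3-KO lists at 701 and 588 bp.

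CD44 (gene 960, chr11:35139171-35232402) had 1 peak on its start, in the IGF2BP3-KO list alone, and none elsewhere in its body in any list. That peak, chr11:35138836-35139994, was 1159 bp wide and at percentile 82.5 of its list. The narrowest peak kept when that list was cut to its 39194 widest was 401 bp, so the CD44 peak was bound to stay. The only other site within 50 kb lay 5483 bp above the gene and measured 461 bp in IGF2BP1-KO and 471 bp in IGF2BP3-KO. A gene body of 93232 bp thus held 0 peaks in 3 of the lists.

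ACTB (gene 60, chr7:5527148-5530601) had a wide peak over its upper end in all lists. It measured 1440 bp in the control (percentile 91.11), 1724 bp in IGF2BP1-KO (95.24), 1035 bp in IGF2BP2-KO (81.76) and 1617 bp in IGF2BP3-KO (95.58). The log2 ratios to control, 0.26, -0.48 and 0.17, stayed within 1.5-fold, and the IGF2BP2-KO peak was the narrowest of the 4. Around the gene, 5 more sites were in every list, from 478 bp at FBXL18, an F-box protein gene, in IGF2BP3-KO to 1997 bp in IGF2BP1-KO at the site beside LOC100288712. The site 29.01 kb above the lower gene end was widest in IGF2BP2-KO, at 1364 bp against 718 bp in the control, 917 bp in IGF2BP1-KO and 781 bp in IGF2BP3-KO. The site overlapping LOC221946 was widest in IGF2BP1-KO, at 1450 bp against 1022 bp in the control, 607 bp in IGF2BP2-KO and 661 bp in IGF2BP3-KO. Its width percentiles were 89.28 in IGF2BP1-KO, 71.42 in the control, 44.4 in IGF2BP2-KO and 43.73 in IGF2BP3-KO.

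Promoter peaks at other genes of these pathways were almost all shared. Of 36 genes in 4 lists, 35 had one in the control list, 35 in the IGF2BP1-KO list, 34 in the IGF2BP2-KO list and 35 in the IGF2BP3-KO list, beside 66.6%, 68.7%, 68.2% and 67.5% of all protein-coding genes. Wider promoters past 1.5-fold were 2 of 35, 1 of 34 and 1 of 35 in IGF2BP1-KO, IGF2BP2-KO and IGF2BP3-KO, beside 6.36%, 2.58% and 2.57% of all genes. Narrower ones were 1, 3 and 2, beside 0.901%, 4.16% and 3.83%. In the LIN28 and let-7 pathway, 8 of 9 genes had a promoter peak in every list, among them DICER1, which cuts microRNA precursors, and 0 differed by 1.5-fold from the control. AGO2, which holds microRNAs in the silencing complex, had none at the gene ends that were used for it. All 10 genes of the MYC network had one in every list, and 1 was past 1.5-fold, MNT, a MAX partner that represses transcription, narrower in IGF2BP3-KO at 1126 bp against 2457 bp in the control. The genes of 7 other transcripts bound by IGF2BP proteins all had one in every list, and 1 was past 1.5-fold, ACTG1, which encodes gamma-actin, narrower in IGF2BP2-KO at 1150 bp against 2725 bp. MNT and ACTG1 are named after their values were seen, as are HRAS and CDC34 among the let-7 targets. The median log2 width ratios over the 36 genes, where both lists had a peak, were 0.09, -0.02 and 0.0 in IGF2BP1-KO, IGF2BP2-KO and IGF2BP3-KO, beside 0.1, 0.0 and 0.0 over all genes.

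Among the 10 let-7 targets, 2 were wider and 1 narrower past 1.5-fold in IGF2BP1-KO, 1 wider and 2 narrower in IGF2BP2-KO, and 1 wider and 1 narrower in IGF2BP3-KO. The all-gene shares for wider promoters were 6.36%, 2.58% and 2.57%, and for narrower ones 0.901%, 4.16% and 3.83%, in the same order of knockouts. CCND2, a cyclin of the G1 phase, measured 388 bp in the control, 1516 bp in IGF2BP1-KO, 606 bp in IGF2BP2-KO and 1434 bp in IGF2BP3-KO, wider in all 3 by log2 values of 1.97, 0.64 and 1.89. CDK6, a kinase that G1 cyclins activate, measured 2409 bp in the control and 1598, 1336 and 1589 bp in IGF2BP1-KO, IGF2BP2-KO and IGF2BP3-KO, narrower in all 3 by -0.59, -0.85 and -0.60. HRAS, a small GTPase, was wider in IGF2BP1-KO alone, at 1469 bp against 840 bp in the control, and CDC34, a ubiquitin-conjugating enzyme, was narrower in IGF2BP2-KO alone, at 1185 bp against 2008 bp. CCND1, a further G1 cyclin, had 419, 454 and 466 bp in the control, IGF2BP1-KO and IGF2BP3-KO lists and no promoter peak in the IGF2BP2-KO list. Besides AGO2, CCND1, CCND2 and CDK6, no gene of the 36 lacked a promoter peak in a list or was past 1.5-fold in all 3 knockouts. The 3 ratios of a gene are taken against the same control width, so they are not independent of each other. The share of all genes past 1.5-fold in all 3 knockouts was not computed.

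For LIN28B, HMGA1, MYC, MYCN and ACTB, the protein-coding gene with the most similar width percentiles over the 4 lists was found among 12864 others. The measure is the sum of the 4 absolute differences in percentage points, described over 4 lists with no test. Each percentile is that of the widest promoter peak of the gene in a list, not of the summed width. It can thus come from another site in IGF2BP3-KO than in the other lists, as for LIN28B and HMGA1. It was smallest for MYC, at 1.64 to SEC11C, and was 2.61 for ACTB to IGDCC4 and 2.74 for LIN28B to EOLA2. HMGA1 came 9.45 points from SPEN. MYCN had the least similar partner, GGTA1 at 30.5 points, whose percentiles were 99.45, 71.63, 99.74 and 99.66, so that it too was lowest in IGF2BP1-KO.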

How the data were processed

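The authors deposited 9 ATAC-seq libraries as 4 peak lists, 1 per group, with chromosome, start and end of each peak and no height or score. Per the submitters' processing notes, the tools were fastp 0.24.1, BWA 0.7.17, MACS2 3.0.0 and bedtools and the build GRCh38. Their settings, the offset correction and how libraries were combined are not given in the sources used here, so list length and width may reflect depth and threshold. Gene positions came from a RefSeq table (GRCh38.p14), which holds no exons. Starts came from RefSeq's promoter table for 15843 of 20037 protein-coding genes and from both gene ends for the others. Python 3.11.15 and pandas 2.3.3 were used, with overlap code tested on simulated lists. Shared peaks had at least 1 bp in common, and intervals are Wilson 95% intervals. Width is the summed width of peaks in the promoter window. The members and gene lists were chosen with earlier results of these data known. All 8 members are named, as are regions missing from a list with a peak in the widest 50% of a list, genes of 4 further lists whose promoter peak was absent or 1.5-fold different in all 3 knockouts, and the gene nearest in pattern, which for HMGA2 is not reported here. Other regions were described by counts or chosen after their values were seen. Alternatives covered overlap, list length, narrow or split peaks and window sizes.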

Additional observations from a re-analysis of the deposited data

How the results depend on the processing

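Of 73 values recomputed for the neighbourhood counts and shares and for the number of genes with a promoter peak, 66 were counted as unchanged. These stayed within the counting interval of the value given, or within 1.5 times for gene counts. A ratio that crossed 1 was counted as changed even inside its interval, as were those of IGF2BP1-KO and IGF2BP2-KO in the cut lists. When lists were cut to their 39194 widest peaks, the ratio of knockout to control peaks was 0.88 for IGF2BP1-KO and 0.92 for IGF2BP2-KO. The full lists gave 1.16 and 1.36. Over all peaks of the cut lists the ratio is 1 by construction, against 1.299 and 1.538 in the full lists. By the same change the share of knockout peaks without a control counterpart was 9.09% and 13.0%. Of control peaks, 24% had no IGF2BP2-KO counterpart and 24% no IGF2BP1-KO counterpart (4% and 12% in the full lists). The shares over all peaks were not recomputed for the cut lists. This setting drops peaks narrower than 612, 541 and 401 bp from the IGF2BP1-KO, IGF2BP2-KO and IGF2BP3-KO lists and none from the control. With 20 kb neighbourhoods, which leave 15 control peaks, 0% of these lacked an IGF2BP2-KO counterpart and 6.67% an IGF2BP3-KO one. Of 39 recomputed promoter width ratios 35 kept their side of 1.5-fold. The others, all from a window of 2.5 kb chosen after seeing the data, were HMGA2 (0.24) and MYCN (-0.21) in IGF2BP1-KO, which no longer passed, and MYC in the IGF2BP1 (0.66) and IGF2BP3 (0.64) knockouts, which passed because the internal peak came into the window. No paired analysis was possible because each group has 1 list with no values per library, and for the same reason no library could be left out.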
